A study of Mus musculus with 2 samples.

Results

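Secreted host defence genes of the mouse anorectal junction were followed through every cell cluster of a normal and a wounded single cell library. The 10 genes were the serum amyloid A genes Saa1, Saa2 and Saa3, the iron-binding proteins Lcn2 and Ltf, the protease inhibitor Slpi, the beta-defensins Defb1 and Defb45, the lectin Reg3g and the immunoglobulin transporter Pigr. They were taken by name from the 30406 genes present in the feature tables of both libraries, and 9 of the 10 had at least 1 UMI (unique molecular identifier, 1 counted RNA molecule) in a cell that passed the filters. The genes were selected on measured values, namely their UMI levels over these clusters and the differences between clusters and libraries seen in an earlier pass over the same files, so the levels below are a description and carry no test.

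Cells came from K17CreERT2;R26RGFP mice on the C57/BL6J strain, in which a Krt17-driven, tamoxifen-activated Cre switches on a fluorescent reporter in the transition zone, the narrow epithelium between rectum and anal canal. Both libraries carried these alleles and both had received tamoxifen, and the normal library came from unwounded mice. The wounded library was prepared 1 week after a wound made in 2 to 4 month old animals. Hot EDTA and then an electric brush had been used to take away the rectal crypts next to the transition zone. By the paper's methods the mice of wounding experiments were also given the drug METACAM beforehand. The week after the wound lengthened the time from tamoxifen to harvest. For each library at least 5 mice were pooled, and live cells were sorted for the epithelial protein EpCam and against CD45, CD11b, CD31 and PDGFRa, which mark leukocytes, myeloid cells, endothelium and fibroblasts. The condition therefore had 1 library each, no difference between conditions can be tested, and every interval below covers counting error only.

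Epithelia that face microbes secrete proteins that bind iron, break microbial membranes or block proteases, and many of their genes are induced by IL-1, IL-6, IL-17 and IL-22 through NF-kB, C/EBP and STAT3 factors. Serum amyloid A proteins are acute-phase proteins best known from the liver, but they are also made by gut and skin epithelium. In the colon, epithelial cells carry polymeric immunoglobulin into the lumen with the receptor encoded by Pigr, while stratified squamous epithelium relies on keratinized layers, defensins and protease inhibitors.

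The normal library held 2564 barcodes and 17617944 UMIs, and the wounded library 17216 barcodes and 88260050 UMIs. The study's filters of more than 200 and fewer than 5000 genes and less than 25% mitochondrial UMIs kept 1548 and 5225 cells. The authors' tables named 939 normal cells (Anal Canal, Basal, Suprabasal and Rectum) and 4147 wounded cells (Basal, Suprabasal, Regeneration, Wound_Stress, Hybrid and Rectum), with median depths of 9724 and 10077 UMIs. A further 610 normal and 1078 wounded cells passed the filters without a name. The median depth of a named cluster lay between 8438 and 12616 UMIs except in Hybrid, at 2390, and the libraries shared 1 barcode, which was not that of a named cell. The name Basal did not mark the same profile in both libraries. Over 1963 variable genes other than the 10, normal Basal cells correlated with wounded Basal cells at a Pearson r of 0.546 and about equally with Regeneration at 0.762 and wounded Suprabasal at 0.760, whereas wounded Basal cells correlated with normal Anal Canal at 0.860. The summed level of 8 suprabasal stratified keratinocyte genes was 379 CPM (UMIs of a gene per 1000000 UMIs of its group) in normal Basal, 10042 CPM in wounded Basal and 10184 CPM in normal Anal Canal. Rectum carried the simple epithelial keratin gene Krt8 at 2741 and 2386 CPM, against 25.3 to 430 CPM in the other named clusters. Rectum cells (r = 0.871) and Suprabasal cells (r = 0.867) matched their own names across the libraries. Comparisons by the name Basal are therefore given beside those with Regeneration, wounded Suprabasal and normal Anal Canal.

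The 3 serum amyloid genes lie close together on chromosome 7 of the mouse genome (GRCm38). Saa3 (ENSMUSG00000040026) at chr7:46711998-46715700 and Saa1 (ENSMUSG00000074115) at chr7:46740497-46742980 are on the minus strand. Saa2 (ENSMUSG00000057465) at chr7:46751790-46754313 is on the plus strand. Saa3 and Saa1 are 24796 bases apart and Saa1 and Saa2 8809 bases apart. Because the 3 genes had different cell patterns, the 250 bases before the RefSeq start of each (GRCm38.p6) are shown with those of Lcn2 (ENSMUSG00000026822), 5′ to 3′ on the strand of the gene. They are read from chr7:46742981-46743230 (minus strand), chr7:46751583-46751832 (plus strand), chr7:46715677-46715926 (minus strand) and chr2:32387740-32387989 (minus strand). Capitals mark a match to TTNNGCAA, the letters of a C/EBP site, on either strand.
Saa1: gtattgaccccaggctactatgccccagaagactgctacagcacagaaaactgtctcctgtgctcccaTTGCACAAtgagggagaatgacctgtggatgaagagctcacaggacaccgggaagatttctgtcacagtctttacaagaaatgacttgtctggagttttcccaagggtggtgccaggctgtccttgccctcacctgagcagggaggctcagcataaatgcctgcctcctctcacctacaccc
Saa2: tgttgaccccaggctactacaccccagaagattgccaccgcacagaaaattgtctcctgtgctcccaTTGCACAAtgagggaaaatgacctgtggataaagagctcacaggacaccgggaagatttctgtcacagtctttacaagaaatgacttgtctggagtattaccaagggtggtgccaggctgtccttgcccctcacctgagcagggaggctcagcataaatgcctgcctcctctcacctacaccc
Saa3: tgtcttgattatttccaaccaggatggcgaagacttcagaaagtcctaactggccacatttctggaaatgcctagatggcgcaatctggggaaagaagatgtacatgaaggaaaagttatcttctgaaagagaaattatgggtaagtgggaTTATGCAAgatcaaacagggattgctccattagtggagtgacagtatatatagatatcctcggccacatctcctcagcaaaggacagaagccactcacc
Lcn2: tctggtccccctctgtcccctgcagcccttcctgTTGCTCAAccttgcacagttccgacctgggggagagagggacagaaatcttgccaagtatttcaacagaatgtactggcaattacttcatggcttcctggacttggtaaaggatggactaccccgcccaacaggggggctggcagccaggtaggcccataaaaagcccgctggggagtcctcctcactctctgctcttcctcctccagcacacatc
The letters TTNNGCAA or their reverse complement were found in 9.56% of 32851 RefSeq promoter windows of this length, and in 6 of the 9 windows of these genes that were in the table (Saa1, Saa2, Saa3, Lcn2, Ltf and Slpi). Saa1 and Saa2 had the match at nearly the same place, from position -182 to -175 and from -183 to -176 before the start. Saa3 had it closer to the start, from -99 to -92, and Lcn2 farther away, from -216 to -209. An NF-kB site, GGGA and TTCC parted by any 2 bases (1.21% of windows), and a STAT site written TTCCNGGAA (0.913% of windows) were in 0 of the 9 windows. When aligned, the Saa1 and Saa2 windows were identical in 238 of 251 columns (94.8%), and the Saa1 and Saa3 windows in 50.2%. The transcripts of Saa1 and Saa2 are also near copies. Of the 560 windows of 50 bases in the Saa1 transcript, 74 (13.2%) occurred unchanged in a Saa2 transcript, and in the last 300 bases, where this 3′ assay reads, the share was 9.56%. None occurred in Saa3. Reads that match both genes are not counted by default. The split between Saa1 and Saa2 therefore rests on reads outside the shared windows and is uncertain to that extent. Saa3 shares no such stretch.

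The other genes are scattered. Lcn2 is at chr2:32384633-32388252, Slpi (ENSMUSG00000017002) at chr2:164354070-164389095, Defb45 (ENSMUSG00000062124) at chr2:152593191-152599399 and Reg3g (ENSMUSG00000030017) at chr6:78466269-78468872, all on the minus strand. Ltf (ENSMUSG00000032496) is at chr9:111019271-111042767, Defb1 (ENSMUSG00000044748) at chr8:21776599-21795185 and Pigr (ENSMUSG00000026417) at chr1:130826684-130852249, all on the plus strand.

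Saa1 encodes an acute-phase apolipoprotein that binds lipids and retinol. In the normal library it stood at 437 CPM in Rectum (95% Poisson interval 390 to 489; 308 UMIs), 18.1 CPM in Basal (13.4 to 23.9), 3.07 CPM in Suprabasal (1.23 to 6.32) and 1.14 CPM in Anal Canal (0.371 to 2.66). The normal Rectum value rested on a single cell, which held 295 of the 308 UMIs (95.8%). Without that cell the level was 18.8 CPM (10.0 to 32.2), and the interval then overlapped that of Basal. After the wound Saa1 stood at 173 CPM in Rectum (161 to 186) and 83.6 CPM in Regeneration (78.7 to 88.7). Hybrid followed at 31.7 CPM (23.3 to 42.1), and Suprabasal (12.6 CPM), Wound_Stress (11.4 CPM) and Basal (8.01 CPM) were lower still, with neighbours in this order that did not differ beyond counting error. Rectum was the highest named cluster for Saa1 in both libraries.

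The wounded Rectum signal of Saa1 was uneven as well but not the work of 1 cell. Cells with at least 10 Saa1 UMIs numbered 23 of 397 (5.79%) and held 564 of 712 UMIs (79.2%). Their median depth was 4531 UMIs, against 9991 in the cluster, so they were not the deepest cells. Genes that led in these cells over the other Rectum cells included the water channel gene Aqp8 (522 against 9.49 CPM), the carbonic anhydrase gene Car4 (659 against 20.8 CPM) and the keratin gene Krt20 (891 against 30.0 CPM), all known from surface colonocytes. Guca2a, on the same colonocyte list as Aqp8 and Car4, was lower in them, at 61.6 against 521 CPM. Ly6g, a gene best known as a neutrophil surface marker, was found in 21 of the 23 cells (1067 against 20.8 CPM), while the neutrophil gene Retnlg had 0 UMIs in them and Pigr was counted in 23 of 23. Over the whole neutrophil list of 8 genes the summed level was 74.7 CPM in wounded Rectum, of which Ly6g made 74.4 CPM. The same list reached 148 CPM in normal Rectum, with 145 CPM from Ly6g, and 0.457 to 8.77 CPM in the other named clusters. Csf3r and Retnlg, known from mature neutrophils, were at 0 in Rectum of both libraries. Cxcr2, on the same list, was at 2.84 CPM in normal and 0.243 CPM in wounded Rectum. At a common depth of 2000 UMIs per cell, Saa1 was found in 11.9% of wounded Rectum cells (95% Clopper-Pearson interval 8.69 to 15.7). In normal Rectum it was found in 1 of 60 cells, or 1.67% (0.0422 to 8.94). In normal Anal Canal, a stratified epithelium with little Saa1, the share was 0.504%, at a median depth of 8438 UMIs. The share of Rectum cells with Saa1 was higher in the wounded library, but the 2 intervals overlapped. Without thinning the shares were 20.9% in wounded and 11.1% in normal Rectum. The counted level was lower in wounded than in normal Rectum (log2 ratio -1.34, -1.53 to -1.14). Without the 1% of cells with the most UMIs of the gene the ratio was 2.80 in the opposite direction.

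**Figure D1:**
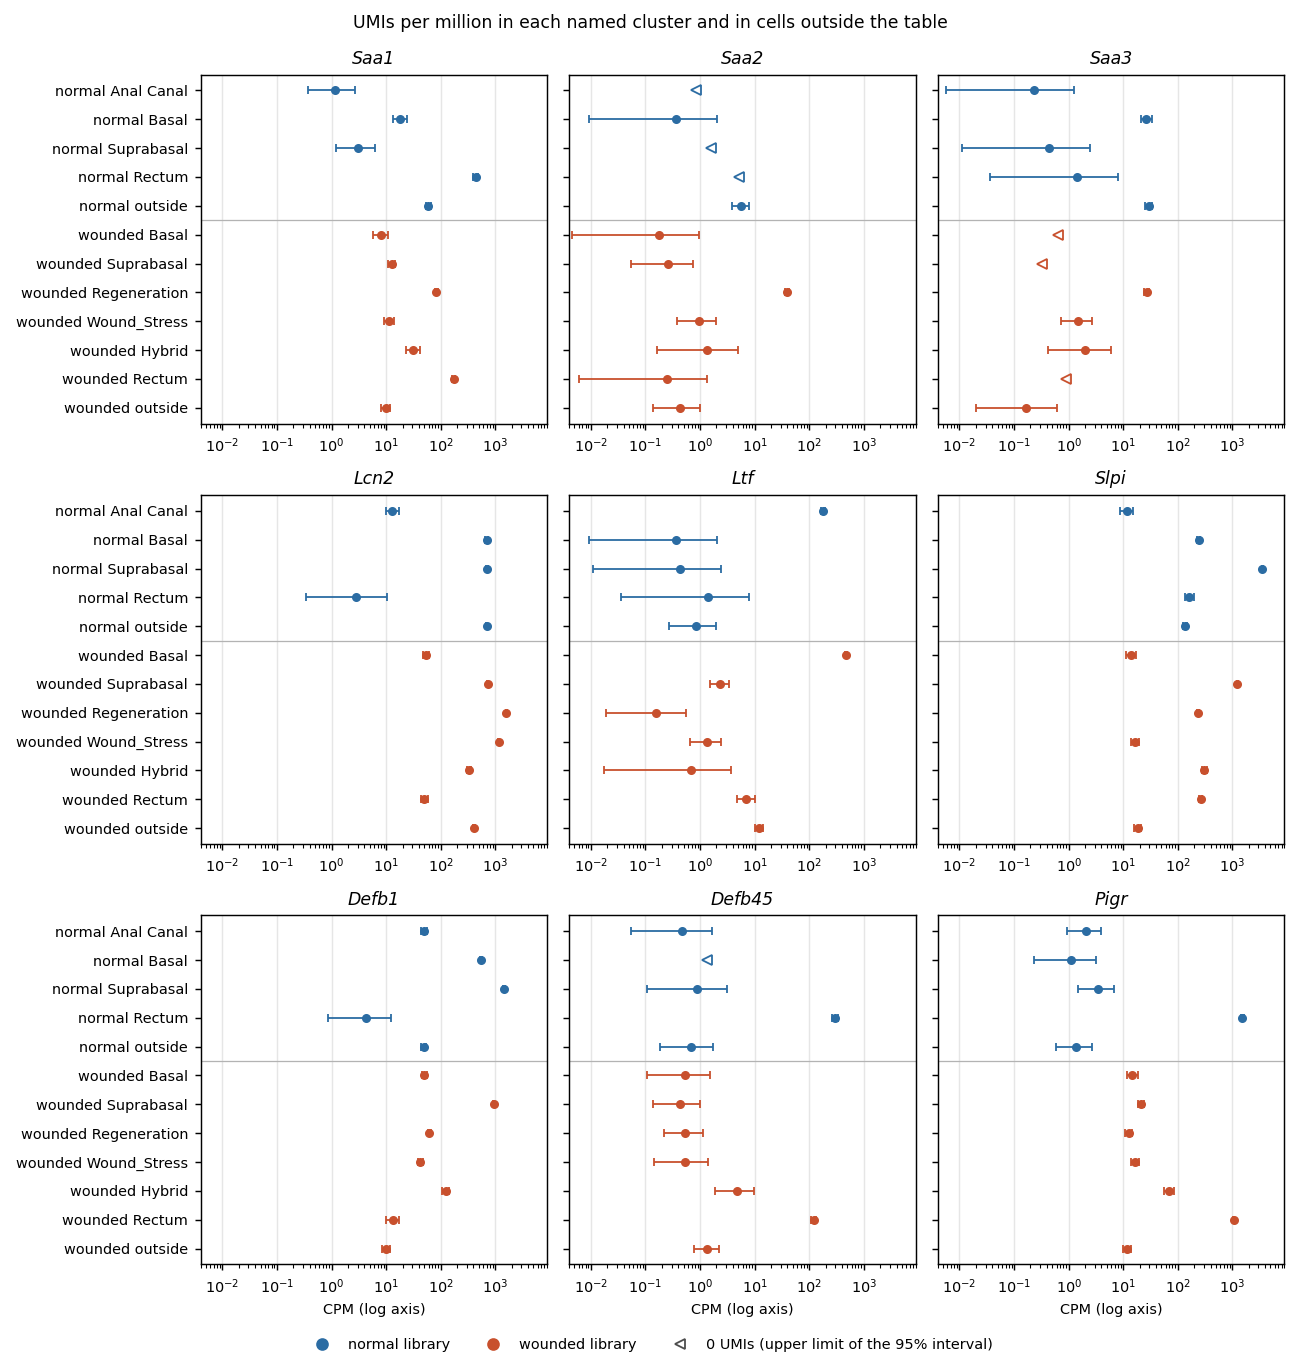
Levels of 9 genes in CPM (log axis) in the 4 named normal clusters, the 6 named wounded clusters and the unnamed cells of each library, with 95% Poisson intervals. Open triangles mark 0 UMIs at the upper end of the interval. Pigr and Defb45 peak in Rectum of both libraries, Slpi and Defb1 in Suprabasal, Ltf in normal Anal Canal and wounded Basal, and Lcn2 and Saa2 in Regeneration.

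Saa2, the close neighbour of Saa1, was almost confined to Regeneration among the named clusters. It had 506 UMIs there (38.9 CPM, 35.6 to 42.5), and 1 to 7 UMIs in each of the other wounded clusters, the next highest being Hybrid at 1.35 CPM from 2 UMIs. In the normal library 1 UMI was counted in Basal and 0 in Anal Canal, Suprabasal and Rectum, where the interval reached up to 5.24 CPM. Saa3, the serum amyloid made mainly outside the liver, had 355 UMIs in Regeneration (27.3 CPM, 24.5 to 30.3), 11 in Wound_Stress (1.47 CPM) and 3 in Hybrid. It had 0 UMIs in wounded Basal, Suprabasal and Rectum. In normal Basal Saa3 stood at 26.6 CPM (20.8 to 33.5; 72 UMIs), which did not differ from Regeneration beyond counting error (log2 ratio 0.04, -0.33 to 0.42). That normal Basal level again came from few cells, since 1 cell held 50 of the 72 UMIs (69.4%) and 2 cells held 68 (94.4%). Without the first cell the level was 8.18 CPM (5.12 to 12.4). Saa1 in normal Basal was likewise uneven, in that 1 cell held 24 of its 49 UMIs and the 62 cells with at least 10 Lcn2 UMIs held 46 of them.

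Within Regeneration the 3 serum amyloids were carried by small and partly shared sets of cells. Of 991 cells, 30 (3.03%) had at least 10 Saa1 UMIs and held 52.6% of the UMIs of that gene. For Saa2, 17 cells (1.72%) held 78.7%, and for Saa3 11 cells (1.11%) held 74.4%. Cells high in Saa1 were also high in Saa2 in 5 cases and in Saa3 in 3 cases, and 2 cells were high in both Saa2 and Saa3. In the 11 Saa3-high cells Saa1 reached 604 CPM against 77.8 CPM in the other Regeneration cells, Saa2 351 against 35.5 CPM, and Lcn2 3317 against 1579 CPM. In the 30 Saa1-high cells Lcn2 stood at 2436 against 1568 CPM, whereas Slpi (155 against 240 CPM) and Defb1 (31.5 against 63.3 CPM) were lower than in the rest. The leading genes of the sets differed. Saa3-high cells led with Sod2, the mitochondrial superoxide dismutase, and Nfkbia, the inhibitor of NF-kB (1560 against 588 CPM). Saa2-high cells led with genes that included Idi1, an enzyme of sterol synthesis (1092 against 340 CPM), and Saa1-high cells with Lypd8, a protein that keeps bacteria from the colon surface (326 against 33.0 CPM). Lypd8 was counted in 8 of these 30 cells, and the rectal genes Lgals4 and Krt8, also among the leading genes, in 9 and 11.

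Regeneration and Wound_Stress, names used only in the wounded library, differed in their serum amyloids. Regeneration exceeded Wound_Stress 7.34-fold for Saa1 (log2 ratio 2.88, 2.56 to 3.21), 41.5-fold for Saa2 (5.37, 4.32 to 6.70) and 18.5-fold for Saa3 (4.21, 3.35 to 5.23). Lcn2 was closer, with a log2 ratio of 0.45 (0.41 to 0.48). Of the Wound_Stress cells 44 fell in the rectum-like rebuilt cluster and held 42 of the 85 Saa1 UMIs and 68 of the 124 Pigr UMIs. Their own levels differed from those of the Rectum cells in that cluster, with Lcn2 at 811 against 61.8 CPM and Pigr at 123 against 941 CPM. Their label depended on the resolution of the clustering, since at a finer one of 0.4 the rectum-like cluster held 8 Wound_Stress cells. Without the 44 cells the Saa1 ratio was 13.4-fold (3.75, 3.31 to 4.22), while those of Saa2 (44.8-fold) and Saa3 (17.1-fold) moved little.

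**Figure D2:**
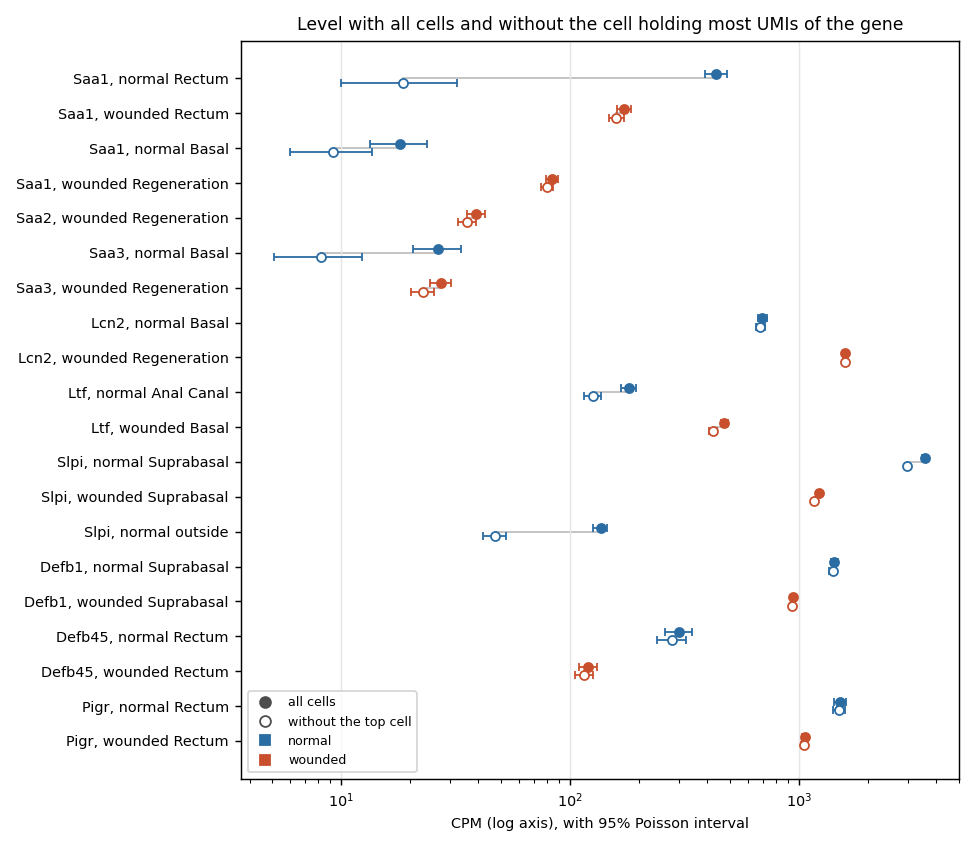
Level in CPM (log axis) of genes in 20 gene and cluster pairs, over all cells (filled) and without the single cell that held the most UMIs of the gene (open), with 95% Poisson intervals. Saa1 in normal Rectum drops from 437 to 18.8 CPM and Saa3 in normal Basal from 26.6 to 8.18 CPM, while Saa1 in wounded Rectum and the Regeneration levels move little.

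Lcn2 encodes lipocalin 2, which captures bacterial siderophores and so withholds iron. It was spread over many cells in the clusters where it was high. In the normal library it stood at 694 CPM in Basal (663 to 726) and 700 CPM in Suprabasal (666 to 735), which did not differ beyond counting error. It was 13 CPM in Anal Canal and 2.84 CPM in Rectum, where 2 UMIs were counted. In the wounded library the order was Regeneration at 1598 CPM (1576 to 1620), Wound_Stress at 1172 CPM (1148 to 1197), Suprabasal at 725 CPM (710 to 741) and Hybrid at 331 CPM (302 to 362). Wounded Basal (54.0 CPM) and Rectum (50.4 CPM) were lowest and did not differ beyond counting error. At 2000 UMIs per cell Lcn2 was found in 81.6% of Regeneration cells (79.1 to 84.0; 97.3% without thinning), 76.4% of Wound_Stress cells, 62.8% of wounded Suprabasal and 63.5% and 66.7% of normal Basal and Suprabasal cells. The share was 0 of 60 normal Rectum cells, where a count of 0 leaves room for 5% (3 cells), and 5.93% of the wounded ones.

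Against the same name, Lcn2 was level in Suprabasal (log2 wounded over normal 0.05, -0.03 to 0.13) and 12.8-fold lower in wounded than in normal Basal (-3.68, -3.86 to -3.51). Set by profile in place of name, the result depended on the cluster taken. Lcn2 was 2.30-fold higher in Regeneration than in normal Basal (1.20, 1.14 to 1.27) but level in wounded Suprabasal, which matched normal Basal as well (0.06, -0.01 to 0.14). It was 4.15-fold higher in wounded Basal than in normal Anal Canal (2.05, 1.64 to 2.49). In wounded Basal, however, 9 of 573 cells held 66.8% of the Lcn2 UMIs. Their median depth was 19985 UMIs, against 9075 in the cluster. In Rectum the wounded level was higher (4.15, 2.28 to 7.20), with 207 UMIs against 2. There 5 of 397 wounded cells held 48.3%, at a median depth of 21576 UMIs against 9991. Cells with at least 10 Lcn2 UMIs made up 66.4% of Regeneration, 37.7% of Wound_Stress, 30.7% of wounded Suprabasal and 24.1% of normal Basal. Lcn2 is also a granule protein of neutrophils, and the neutrophil list summed to 0.457 to 8.77 CPM in the named clusters outside Rectum. Of that list, Ly6g reached 6.74 CPM there, Elane and Ngp were at 0, and the other 5 genes were at 0 to 0.739 CPM. The 4 general leukocyte genes summed to 0 to 14.6 CPM in the named clusters.

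Ltf encodes lactotransferrin, an iron-binding protein of milk, tears and neutrophil granules. It was found in a place where Lcn2 was low, at 181 CPM in normal Anal Canal (168 to 194) and 474 CPM in wounded Basal (457 to 493). All other named clusters lay at 0.154 to 7.06 CPM. The signal was restricted to few cells of either cluster. In normal Anal Canal 8 of 432 cells (1.85%) held 753 of 791 UMIs (95.2%), and 1 of them held 242 (30.6%). In wounded Basal 23 of 573 cells (4.01%) held 2681 of 2723 UMIs (98.5%). Their median depths, 9081 and 8554 UMIs, were close to those of their clusters, at 8438 and 9075.

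Ltf-high cells shared a set of genes across the 2 libraries. Psca, a surface protein of squamous and urothelial cells, reached 32146 against 45.2 CPM in the other Anal Canal cells and 35001 against 59.1 CPM in the other wounded Basal cells. The protease gene Prss27 reached 1443 against 1.63 CPM and 2918 against 4.52 CPM. Ppbp, a chemokine precursor known from platelets, reached 21423 against 54.3 CPM and 18022 against 54.9 CPM. Epcam, the sorted marker, was counted in 8 of 8 and 23 of 23 of these cells, and Krt14, a keratin of stratified epithelium, in 6 and 15. Ly6g and Retnlg had 0 UMIs in the normal Ltf-high cells and were in 2 cells each of the 23 wounded ones. The neutrophil list summed to 0.457 CPM in normal Anal Canal and 3.31 CPM in wounded Basal. Lcn2, also known from neutrophil granules, had 0 UMIs in the normal Ltf-high cells. In the wounded ones it stood at 136 CPM, against 51.0 CPM in the remaining wounded Basal cells. Ltf was 2.63-fold higher in wounded Basal than in normal Anal Canal (log2 ratio 1.39, 1.28 to 1.51). By name, wounded over normal Basal gave 10.33 (7.85 to 15.63) from 2723 UMIs against 1.

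Slpi encodes the secretory leukocyte protease inhibitor, which blocks neutrophil elastase and has antimicrobial activity. Normal Suprabasal had 3551 CPM (3474 to 3629), against 242 CPM in Basal (224 to 261), 163 CPM in Rectum (135 to 196) and 11.6 CPM in Anal Canal (8.67 to 15.3). Wounded Suprabasal had 1229 CPM (1209 to 1250), against 309 CPM in Hybrid, 262 CPM in Rectum, 238 CPM in Regeneration, 16.5 CPM in Wound_Stress and 13.9 CPM in Basal. Suprabasal was the highest in both libraries, and its level was 2.89-fold lower in the wounded library (log2 ratio -1.53, -1.57 to -1.49). The name did not hold the same mix of cells. When clusters were rebuilt, those with markers of ducts or upper hair follicle held 169 of 187 normal and 457 of 1032 wounded Suprabasal cells. In these duct-like cells Slpi stood at 3694 CPM in the normal and 1837 CPM in the wounded library. The shares below are over all Suprabasal cells. The share of Suprabasal cells with Slpi at 2000 UMIs was 48.1% in the normal and 28.2% in the wounded library (62.0% and 43.7% without thinning).

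Slpi was also carried by a subset of Suprabasal cells. The cells with at least 10 Slpi UMIs were 65 of the normal (34.8%) and 160 of the wounded Suprabasal cells (15.5%), with 98.0% and 93.6% of the UMIs. In both libraries the kallikrein gene Klk10, a protease of keratinized epithelium, was among their leading genes (1140 against 25.2 CPM in the normal and 815 against 31.9 CPM in the wounded library), and Klk13 was the leading gene of the normal ones (982 against 13 CPM). Spink5, which encodes an inhibitor of kallikreins, was higher in them too, at 1487 against 127 CPM and 2130 against 227 CPM. In wounded Rectum 25 cells held 85.2% of the Slpi UMIs. They led with Cst6, a duct marker that was also high in the wounded Suprabasal Slpi-high cells (8435 against 127 CPM, in 16 of the 25), followed by Lyz1 and then by the goblet cell genes Tff3 (9132 against 1375 CPM), Clca1 and Muc2, the last counted in 25 of 25. In normal Rectum 1 cell held 68 of 115 UMIs, and the level without it was 68.0 CPM. Regeneration exceeded Wound_Stress in Slpi 14.4-fold (log2 ratio 3.85, 3.59 to 4.12).

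Defb1, the constitutively expressed beta-defensin of many epithelia, had the same order as Slpi at the top. It stood at 1432 CPM in normal Suprabasal (1384 to 1482), 550 CPM in Basal (522 to 578), 49.5 CPM in Anal Canal (43.2 to 56.6) and 4.26 CPM in Rectum from 3 UMIs. Wounded cells had 942 CPM in Suprabasal (924 to 960), 123 CPM in Hybrid (106 to 143), 62.2 CPM in Regeneration (58.0 to 66.6), 50.3 CPM in Basal, 42.5 CPM in Wound_Stress and 13.4 CPM in Rectum. Defb1 was 8.84-fold lower in Regeneration than in normal Basal (log2 ratio -3.14, -3.27 to -3.02), although Lcn2 was higher and Slpi did not differ beyond counting error there (-0.03, -0.15 to 0.10). In wounded Suprabasal, the other cluster close to normal Basal, Defb1 was higher by 0.78 (0.70 to 0.86) and Slpi by 2.35 (2.23 to 2.46). That cluster was mixed. Its 457 cells in the duct-like rebuilt cluster had Defb1 at 1349 CPM and Slpi at 1837 CPM. Its 490 cells in rebuilt cluster 1 had Defb1 at 345 CPM, below normal Basal, and Slpi at 316 CPM, beside 242 CPM there. Normal Suprabasal cells of the duct-like cluster had Defb1 at 1535 CPM. Between wounded Basal and normal Anal Canal it did not differ beyond counting error (0.02, -0.24 to 0.28). Cells with at least 10 Defb1 UMIs made up 61.0% of normal and 37.0% of wounded Suprabasal cells, so Defb1 was less concentrated in few cells than Slpi or Ltf.

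Defb45 belongs to a beta-defensin cluster on chromosome 2. It was a Rectum gene, at 300 CPM in the normal (261 to 343; 211 UMIs) and 120 CPM in the wounded library (110 to 132; 495 UMIs). In the other named clusters 0 to 7 UMIs were counted, and the highest level was 4.72 CPM in Hybrid. The wounded Rectum level was 2.49-fold lower (log2 ratio -1.32, -1.55 to -1.08). The 2 Rectum groups may not hold the same mix of cells. The goblet cell genes summed to 8337 CPM in normal and 16591 CPM in wounded Rectum, and the colonocyte genes to 1636 and 747 CPM. Over the Rectum cells the Spearman rho of Defb45 with the summed share of colonocyte genes was -0.72 in the normal and -0.41 in the wounded library. With the summed share of goblet genes it was -0.18 and -0.21. The part of the cell mix in the Defb45 difference was not tested. In the rebuilt clusters, 289 wounded Rectum cells had Defb45 at 177 CPM and the other 108 at 17.8 CPM. At 2000 UMIs the share of Rectum cells with Defb45 was 45.0% (32.1 to 58.4; 61.9% without thinning) in the normal and 16.4% (12.7 to 20.7; 36.3%) in the wounded library, so share and level had the same direction.

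Pigr encodes the polymeric immunoglobulin receptor. It reached 1524 CPM in normal Rectum (1434 to 1618) and 1062 CPM in wounded Rectum (1031 to 1094), which is a log2 ratio of -0.52 (-0.62 to -0.42). At 2000 UMIs 88.3% of normal (77.4 to 95.2; 100% without thinning) and 81.1% of wounded Rectum cells (76.6 to 85.0; 93.7%) had a Pigr UMI. Outside Rectum the level was 1.11 to 3.50 CPM in the normal clusters. In wounded Basal, Suprabasal, Regeneration and Wound_Stress it was 12.7 to 20.8 CPM and in Hybrid 69.5 CPM (56.7 to 84.2). Markers of other rectal cells were higher in the same clusters. The 7 goblet cell genes summed to 12.6 to 43.1 CPM in the non-rectal normal clusters and to 82.4 to 104 CPM in these 4 wounded ones, and the 6 colonocyte genes to 4.82 to 9.81 CPM and 24.5 to 48.0 CPM. The part of free rectal RNA in the low Pigr level outside Rectum was not tested. At 2000 UMIs Pigr was found in 3.01% of wounded Basal and 3.33% of wounded Suprabasal cells and in 0 of the normal Basal cells, where a count of 0 leaves room for 1.18% (3 of 255 cells). The 5 plasma cell genes, which include those of the immunoglobulin that Pigr carries, summed to 2207 CPM in wounded Rectum, but 8452 of the 8455 immunoglobulin UMIs there lay in 1 cell.

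Reg3g, a lectin that kills Gram-positive bacteria in the gut, had 0 UMIs in every barcode of both libraries, cells failing the filters included. A count of 0 allows a level of up to 0.170 CPM in the normal and 0.0340 CPM in the wounded library.

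The counted differences were next set against all genes. A gene was called different where its level differed at least 2-fold, the 95% binomial interval of the ratio left out 0 on the log2 scale, and both groups together had at least 20 UMIs. With 1 library per condition a call describes the 2 libraries or clusters compared. Since these genes were chosen for their pattern over clusters, the shares of all genes called are printed beside each count and nothing is read from them.

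Between the libraries, wounded Basal was higher than normal Basal in 2 (Ltf and Pigr) and lower in 5 (Saa1, Saa3, Lcn2, Slpi and Defb1) of the 7 genes with enough UMIs, where 14.5% and 13.3% of all genes were called higher and lower. Slpi was 17.3-fold lower and Defb1 10.9-fold lower. Saa3 had 0 UMIs against 72, of which 2 cells held 68. With 3 UMIs in place of 0 it was 50.9-fold lower, and its log2 interval reached up to -5.34. The names do not pair like with like here, and only named clusters were matched by profile. Marker genes of anal gland summed to 4890 CPM in Regeneration and 1258 CPM in normal Basal. Between Regeneration and normal Basal 4 of 7 genes were called higher (Saa1, Saa2, Lcn2 and Pigr; 9.66% of all genes) and 1 lower (Defb1; 13.1%), with Saa1 4.61-fold higher (2.21, 1.79 to 2.65). In the finer clustering, normal cluster 5 held 148 cells, 137 of them unnamed, and wounded cluster 3 held 533, with 520 from Regeneration. Both had Saa3 and Egr4 among their leading genes. Saa1 stood at 141 CPM in that normal and 120 CPM in that wounded cluster, Saa3 at 111 and 37.0, and Defb1 at 85.2 and 34.2. Lcn2 (1180 and 1958), Saa2 (7.45 and 53.2), Slpi (68.0 and 128) and Pigr (1.40 and 13.1) were higher in wounded cluster 3. Between wounded Basal and normal Anal Canal 4 of 6 were higher (Saa1, Lcn2, Ltf and Pigr; 9.54%) and 0 lower (6.80%). In Suprabasal 2 of 6 were higher in the wounded library (Saa1 at 2.04, 0.96 to 3.38, and Pigr at 2.57, 1.57 to 3.80; 12.6%) and Slpi was lower (5.16%). Saa1 and Pigr stood at 12.6 and 20.8 CPM in wounded Suprabasal and at 8.01 and 14.8 CPM in wounded Basal. The rebuilt wounded fibroblast-like cluster had 16.5 and 33.6 CPM. The part of free RNA in these calls was not tested. In Rectum 2 of 7 were higher (Lcn2, and Defb1 at 1.65, 0.03 to 3.97, from 55 UMIs against 3; 7.08%) and 2 lower (Saa1 and Defb45; 5.32%). The 2 Rectum groups differed in goblet cell genes, which summed to 8337 CPM in the normal and 16591 CPM in the wounded one. The 2 libraries also differ in the software version named in their headers. Condition, METACAM, time since tamoxifen, library and version therefore cannot be told apart.

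**Figure D3:**
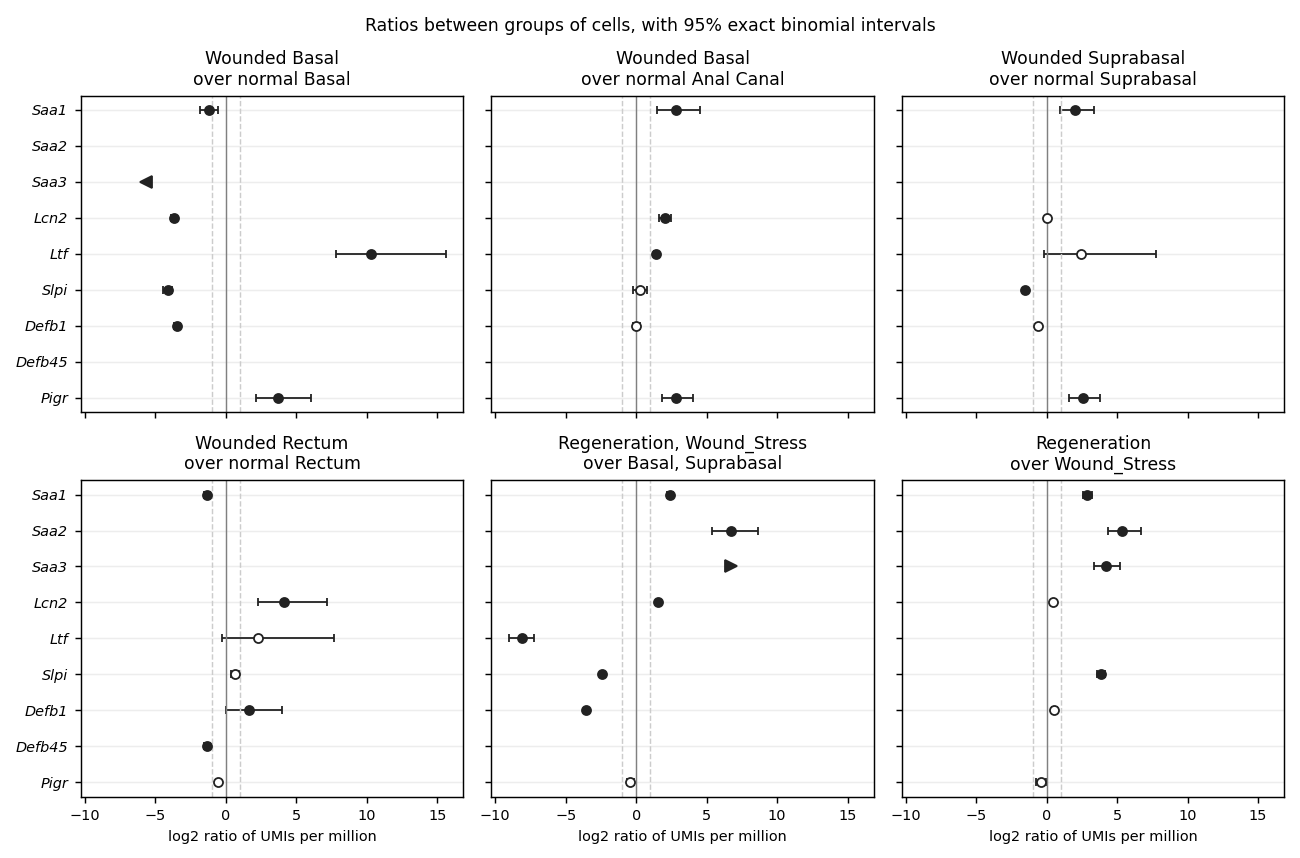
Log2 ratios with 95% binomial intervals in 6 comparisons, with dashed lines at -1 and 1, filled points for called genes, open points for genes not called and triangles for bounds against 0 UMIs. Genes with too few UMIs are left out. Saa1, Saa2, Saa3 and Lcn2 lie to the right in Regeneration and Wound_Stress over wounded Basal and Suprabasal, while Ltf, Slpi and Defb1 lie to the left.

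Within the wounded library, Regeneration and Wound_Stress together exceeded Basal and Suprabasal in 4 of 8 genes (7.97% of all genes) and were lower in 3 (12.7%). The 4 higher ones were Saa1 (5.16-fold), Saa2 (109-fold), Saa3 and Lcn2 (2.87-fold, log2 ratio 1.52, 1.49 to 1.56). Saa3 had 366 UMIs against 0. With 3 UMIs in place of 0 it was 103-fold higher, and its log2 interval began at 6.38. The 3 lower ones were Ltf (-8.08), Slpi (-2.40) and Defb1, which was 11.7-fold lower. These pooled calls need not hold for each cluster. Slpi in Regeneration (238 CPM) was above wounded Basal (13.9 CPM). Defb1 in the first pool (55.0 CPM) was not below wounded Basal (50.3 CPM). Ltf in wounded Suprabasal was at 2.33 CPM. Saa1 in Wound_Stress (11.4 CPM) was not above wounded Suprabasal (12.6 CPM). Pigr was not called (-0.42). The 2 pools also differed in marker genes of anal gland. These summed to 4890 CPM in Regeneration and 4104 CPM in Wound_Stress, against 413 CPM in wounded Basal and 948 CPM in wounded Suprabasal. The part of gland-like cells in these calls was not tested. Regeneration over Wound_Stress had 4 of 7 called higher (the 3 serum amyloids and Slpi; 5.90%) and 0 lower (3.48%).

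For these genes Rectum was also compared with the pooled other named cells of its library, which need not hold for each cluster. Slpi in normal Rectum was below Suprabasal and Basal but above Anal Canal (log2 ratio 3.81, 3.32 to 4.32). Lcn2 in wounded Rectum did not differ from wounded Basal beyond counting error. In the normal library 3 of 8 were higher in Rectum (Pigr 714-fold, Defb45 702-fold and Saa1 67.2-fold; 15.3% of all genes) and 4 lower (Lcn2, Ltf, Slpi and Defb1; 10.6%). Without the cell that held most of its UMIs Saa1 was 2.89-fold higher (log2 ratio 1.53, 0.54 to 2.41). In the wounded library 3 of 9 were higher (Defb45 182-fold, Pigr 58.1-fold and Saa1 4.82-fold, beside 17.0% of all genes). Another 5 were lower (Saa2, Saa3, Lcn2, Ltf and Defb1, beside 13.2%). With 3 UMIs in place of 0 Saa3 was 12.9-fold lower, and its log2 interval reached up to -3.38. Hybrid was a mixture, since its 316 cells fell into rebuilt clusters that included 60 endothelial-like, 46 suprabasal stratified-like, 27 enteroendocrine-like and 24 rectum-like cells. The 24 Hybrid cells in the rectum-like cluster held 308 of the 458 Slpi UMIs and 48 of the 103 Pigr UMIs of Hybrid. Their own levels differed from those of the Rectum cells in that cluster. Slpi was at 1518 against 29.8 CPM, Lcn2 at 719 against 61.8 CPM, Defb45 at 34.5 against 177 CPM and Pigr at 237 against 941 CPM. In the finer clustering the rectum-like cluster held 8 Hybrid cells. The 6 enteroendocrine genes summed to 19170 CPM over Hybrid. Compared with wounded Rectum, Hybrid as a whole was higher in 2 of 7 (Lcn2 6.57-fold and Defb1 9.22-fold; 12.9%) and lower in 4 (Saa1, Ltf, Defb45 and Pigr, the last 15.3-fold; 12.1%). For Ltf the counts were 1 UMI in Hybrid and 29 in wounded Rectum, where 1 cell held 26 of them. Hybrid was also the shallowest cluster, and 132 of its 316 cells had fewer than 2000 UMIs.

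Cells outside the authors' tables held much of the normal serum amyloid signal. In the 610 unnamed normal cells Saa1 stood at 59.1 CPM (53.1 to 65.6), Saa2 at 5.51 CPM (3.79 to 7.74) and Saa3 at 29.2 CPM (25.1 to 33.9), and Lcn2 at 693 CPM. Against the named cells 2 of 9 genes were higher (Saa2, with 33 UMIs against 1, and Saa3, 3.93-fold; 13.3% of all genes) and 5 lower (Ltf, Slpi, Defb1, Defb45 and Pigr; 9.54%). The 1078 unnamed wounded cells were lower than the named ones in 9 of 9 genes (10.1% of all genes) and higher in 0 (14.2%), from -1.14 on the log2 scale for Lcn2 to -5.66 for Saa3.

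All filter-passing cells were clustered again without using these genes, which gave 7 normal and 13 wounded clusters. Cluster 1 of the normal library (355 cells, 329 of them unnamed by the authors) had the markers of anal gland, a sebaceous-like gland, and carried Saa1 at 75.2 CPM, Saa2 at 7.67 CPM, Saa3 at 55.1 CPM and Lcn2 at 1030 CPM. Among the unnamed normal cells, those of this anal gland-like cluster held 33 of 33 Saa2 UMIs, 175 of 175 Saa3 UMIs, 301 of 354 Saa1 UMIs and 4097 of 4149 Lcn2 UMIs. Of the normal cells named Basal, the 26 in cluster 1 had Saa3 at 164 CPM (128 to 208) and Saa1 at 76.2 CPM, while the 221 in cluster 2 had 1.38 CPM and 7.35 CPM. A finer clustering, at resolution 0.4, divided cluster 1 and with it the serum amyloids. Its 208 cells that kept the anal gland markers had Saa3 at 2.18 CPM (0.708 to 5.09; 5 UMIs) and Saa1 at 13.1 CPM (8.82 to 18.7; 30 UMIs). The other 147 cells fell in a cluster that missed the rule for that name and was led by Saa3 and the immediate-early genes Egr4 and Nr4a1, and they had Saa3 at 112 CPM (98.1 to 127; 239 UMIs) and Saa1 at 142 CPM (126 to 159; 303 UMIs). Saa2 did not split in this way, with 18 UMIs in the former (7.85 CPM) and 16 in the latter (7.49 CPM), and Lcn2 was at 884 and 1186 CPM. Of the 26 Basal cells, 11 fell in the latter cluster and held 68 of the 72 Saa3 UMIs of all normal Basal cells, and the 15 with anal gland markers held 1. In the wounded library the anal gland-like cluster 3 (661 cells) had Saa1 at 18.9 CPM, Saa2 at 16.5 CPM and Lcn2 at 767 CPM, and the 97 Regeneration cells in it had Saa2 at 82.4 CPM against 36.6 CPM in the Regeneration cells of cluster 2. For Saa3 the order in these cells was the other way round, at 9.63 CPM against 35.3 CPM.

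**Figure D4:**
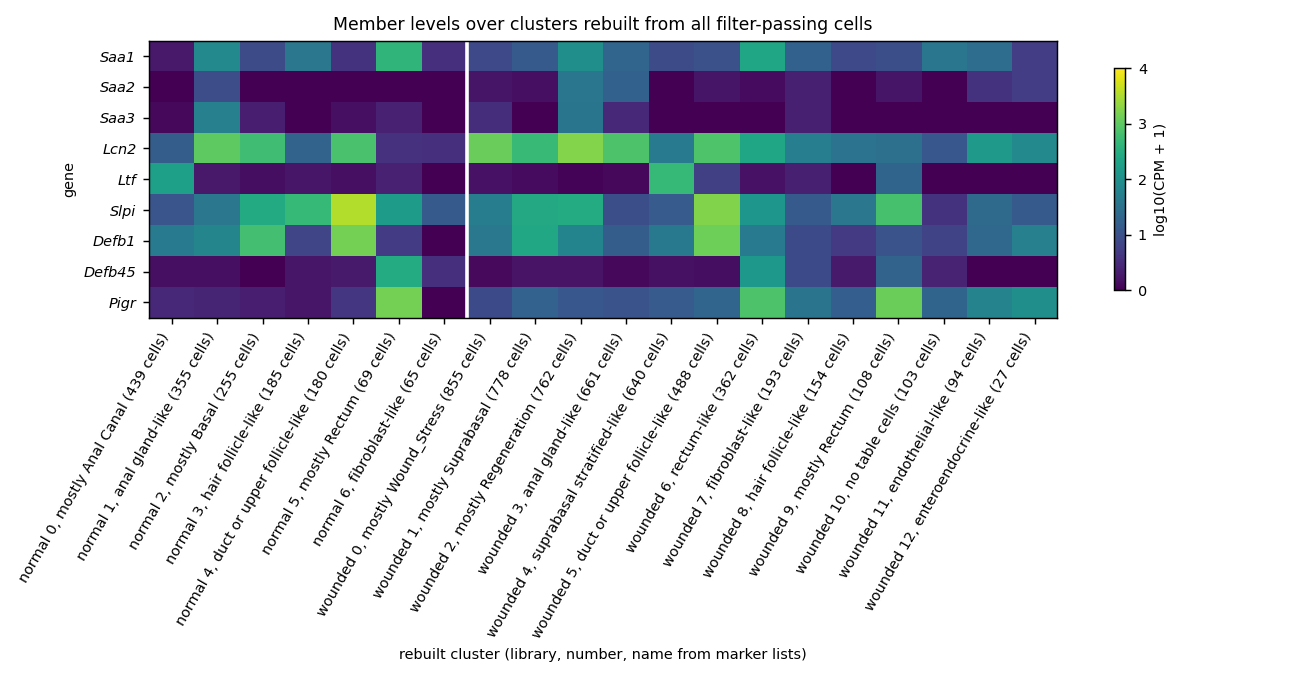
Heat map of log10(CPM + 1) of 9 genes over the 7 normal and 13 wounded clusters built again from all filter-passing cells. Saa3 is highest in the normal anal gland-like cluster 1 and next in wounded cluster 2, Slpi and Defb1 are highest in the duct-like clusters, and Pigr and Defb45 in the rectal ones.

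The other genes were read in the same clusters. Slpi and Defb1 stood at 3443 and 1466 CPM in normal cluster 4 (180 cells) and at 1759 and 1311 CPM in wounded cluster 5 (488 cells), both of which had markers of ducts or upper hair follicle. Of the wounded Suprabasal cells, the 457 in cluster 5 had Slpi at 1837 CPM and the 490 in cluster 1 at 316 CPM. Normal cluster 3 (185 cells), hair follicle-like, had Slpi at 476 CPM and its unnamed cells held 654 of the 818 Slpi UMIs of the unnamed normal cells, of which 1 cell carried 537. Without that cell the unnamed normal cells were at 47.0 CPM. Wounded Rectum split into cluster 6 (289 Rectum cells), with Saa1 at 264 CPM, Defb45 at 177 CPM and Slpi at 29.8 CPM, and cluster 9 (108 cells), led by Igkc, Igha, Retnlb and Spink4, with Saa1 at 8.24 CPM, Defb45 at 17.8 CPM and Slpi at 684 CPM. Pigr was high in both, at 760 CPM in cluster 6 over all its cells and 1281 CPM in cluster 9. Of the 8455 immunoglobulin UMIs of wounded Rectum 8452 lay in 1 cell, so Igkc and Igha are not traits of cluster 9 as a whole. Wounded cluster 4 (640 cells, 552 of them named Basal) had the markers of suprabasal stratified epithelium and carried Ltf at 475 CPM. The fibroblast-like clusters had Lcn2 at 2.54 CPM in the normal and an interval of 39.6 to 62.4 CPM (79 UMIs) in the wounded library, and Pigr at 33.6 CPM in the latter. Saa1 was at 2.54 CPM in the normal and 16.5 CPM (10.8 to 24.1) in the wounded fibroblast-like cluster. Wounded Basal and Rectum, at 54.0 and 50.4 CPM of Lcn2, lay inside the wounded fibroblast-like interval of Lcn2. The part of free RNA in any of these levels was not tested.

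Detection of pairs of these genes in the same cell was set beside the product of their separate shares. At 2000 UMIs, Lcn2 and Slpi shared 20.8% of wounded Suprabasal cells, where the product of their shares was 17.7%, and Lcn2 and Defb1 shared 38.6% against 35.5%. Defb45 and Pigr shared 40.0% of normal Rectum cells against 39.8%, and Saa1 and Pigr 9.60% of wounded Rectum cells against 9.62%. Saa1 and Slpi shared 0.565% of wounded Rectum cells against 1.51%. Over the 63 normal and 397 wounded Rectum cells the Spearman rho of Slpi with the summed share of goblet genes was 0.45 and 0.45, and that of Saa1 was -0.39 and -0.30. The cells share a library and depth, so these are descriptions. In normal Suprabasal the 56 cells with at least 10 Lcn2 UMIs had Slpi at 6210 CPM, against 1622 CPM in the other cells.

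Over the 10 named clusters, the genes with the highest Pearson r of log2(CPM + 1) to each of 9 genes were taken by a fixed rule, 2 for each, among 10351 genes. For Pigr they were Sult1b1 and Phgr1 (both 0.995), for Defb45 Tmem171 and Sult1c2 (both 0.996), and for Ltf Ppbp (0.968) and the chemokine gene Cxcl5 (0.957). For Lcn2 they were St8sia6 (0.979) and Ldhb (0.975), for Defb1 Dnmt3l (0.979), and for Slpi Fggy (0.935) and H2-K1 (0.923). For Saa1 they were Acss2 (0.957) and Erg28 (0.938), for Saa2 Sde2 (0.929) and Zfand5 (0.908), and for Saa3 Egr4 (0.957) and Tgif1 (0.951). The 10 points come from 2 libraries, and 0 of the 18 genes were named again when ranks of CPM were used.

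Other host defence genes were followed with 2 lists, 1 of 55 antimicrobial and acute-phase genes and 1 of 31 receptors and signalling genes of the IL-1, IL-6, IL-17, IL-22, STAT3, C/EBP and NF-kB routes. In Regeneration and Wound_Stress over wounded Basal and Suprabasal, 9 of 35 antimicrobial genes with enough UMIs were higher and 14 lower (7.97% and 12.7% of all genes), with a median log2 ratio of -0.10 beside 0.02 over all genes. Higher were the protease inhibitor gene Wfdc12 (5.04), the neutrophil chemokine gene Cxcl1 (4.86), the haptoglobin gene Hp (3.14) and Lbp (2.92), which encodes the lipopolysaccharide-binding protein. Lower were Cxcl5 (-8.12), the peptidoglycan receptor gene Pglyrp4 (-6.63), the defensin gene Defb6 (-5.91), the calprotectin gene S100a9 (-5.51) and Wfdc18 (-5.20). Of 30 receptor and signalling genes 11 were higher and 4 lower (median 0.65), beside the same shares of all genes. They included the NF-kB feedback genes Tnfaip3 (2.08), Nfkbia (1.88) and Nfkbiz (1.53), the transcription factor gene Cebpb (1.71) and the oncostatin M receptor gene Osmr (1.48), whereas Tlr4 was lower (-3.24).

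Regeneration also exceeded Wound_Stress in 12 of 29 antimicrobial genes, led by Cxcl1 (5.91) and Wfdc12 (3.40), and was lower in 1 (5.90% and 3.48% of all genes). Of 28 signalling genes 11 were higher and 0 lower, with a median of 0.86 beside -0.12 over all genes. Socs3, the feedback inhibitor of STAT3 (3.72), Cebpd (3.53), Tnfaip3 (3.29), Nfkbia (3.19) and the RNase gene Zc3h12a (1.82) were among them. The 3 serum amyloids and Slpi were higher in the same comparison.

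Rectum differed from the other clusters in many genes of both lists and of the genome at large. In the normal library 11 of 26 antimicrobial genes were higher in Rectum than in the other named cells, led by the lectin gene Reg4 (9.48), Lypd8 (9.47), the goblet cell gene Retnlb (8.62) and the mucosal chemokine gene Ccl28 (8.23), and 9 were lower, among them Defb6 (-7.10) and Orm1 (-5.32), where 15.3% and 10.6% of all genes were called higher and lower. In the wounded library 19 of 39 were higher, with the lysozyme gene Lyz1 at 8.65, Reg4 at 8.13 and Retnlb at 7.97, and 12 were lower (17.0% and 13.2% of all genes). Of the signalling genes 6 of 28 were lower and 3 higher in normal Rectum and 12 of 31 lower and 5 higher in wounded Rectum, beside those shares. Socs3 was -6.66 and -3.62 and Cebpb -3.64 and -2.76 in the 2 libraries. Between wounded and normal Rectum 9 of 25 antimicrobial genes were higher and 2 lower (7.08% and 5.32% of all genes), and 0 of 24 signalling genes were called in either direction. In Suprabasal 6 of 24 antimicrobial genes were higher and 3 lower in the wounded library, Defb6 being at -2.11 (12.6% and 5.16% of all genes), and in Basal 14 of 26 were higher and 8 lower (14.5% and 13.3%). For the signalling genes the counts were 6 and 3 of 27 in Suprabasal and 3 and 10 of 29 in Basal.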

How the data were processed

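The deposited matrices hold raw UMI counts for each gene and barcode, made by the authors with Cell Ranger. The file headers name version 3.1.0 for the normal and 4.0.0 for the wounded library, while the submitters' processing notes list Cell Ranger 3.1.0, Seurat 3.2.2 and mm10. The authors' tables of named cells are deposited on a natural log scale, as ln(1 + n) with n a whole number, and the step that made n is not given in the sources used here. Names came from these tables and levels from the counts.

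For each group of cells the UMIs of a gene were added up and divided by those of all genes (CPM). Levels have exact Poisson, log2 ratios exact binomial and shares Clopper-Pearson 95% intervals, which cover counting error only. Against 0 UMIs, 3 UMIs served as the floor, and for a share of 0, 3 cells. For shares, each cell was thinned to 2000 UMIs, leaving out the 2 to 41 normal and 5 to 132 wounded cells of a group that were shallower. Clusters were rebuilt with Seurat 5.3.0 in R 4.3.3 on 2000 variable features, without the 10 genes, with cell-cycle scores regressed, 10 principal components and resolution 0.2. They were named only where at least 3 genes of a fixed marker list were found and their mean log2 ratio exceeded 1. Some clusters that met this rule at resolution 0.2 were left unnamed. Doublets had been gated by scatter during sorting and no caller was run. Statistics used Python 3.11.15 with scipy 1.17.1 and were tested on simulated data. Promoters came from RefSeq on GRCm38.p6 (9 of 10 genes matched) and positions from GENCODE M21 on GRCm38.

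The genes, marker lists and comparisons were chosen with earlier results of these data known. By rule all 10 genes are named, with the 2 genes most like each of 9 of them over the named clusters and up to 5 called genes of each list. Some of these genes are not reported here. Added after seeing the data were the cells with at least 10 UMIs of a gene, the levels without the top cell and the split at resolution 0.4. So were the values without the Wound_Stress cells of the rectum-like cluster and 4 comparisons. The comparisons were Regeneration and wounded Suprabasal over normal Basal, wounded Basal over normal Anal Canal, and Regeneration over Wound_Stress. Alternatives changed the averaging over cells, the total, the fold, the minimum of UMIs, the mitochondrial limit, the highest cells, the source of the counts, the thinning and the clustering.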

Additional observations from a re-analysis of the deposited data

How the results depend on the processing

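Of 172 recomputed counts, shares and totals, 160 kept their direction and stayed within the spread or within 1.5 times the reported count, and 12 moved. Without the 1% of cells with the most UMIs of each gene, the genes lower in wounded than in normal Basal numbered 3 in place of 5, those lower in wounded Rectum than in the other wounded cells 2 in place of 5, and those higher in unnamed than in named normal cells 1 in place of 2. The genes lower in wounded than in normal Rectum numbered 1 in place of 2 without those cells, with the mean over cells, under 10% mitochondrial UMIs and with the whole numbers of the authors' tables, which also gave 1 in place of 2 higher. At a fold of 1.5, 2 in place of 1 were lower in wounded Suprabasal and 4 in place of 2 higher in unnamed normal cells. With no minimum of UMIs 1 in place of 0 was lower in Regeneration than in Wound_Stress, and with Spearman rho 0 of the 18 most similar genes remained.

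Of 596 log2 ratios of single genes, 566 kept their direction and call, 8 were no longer called, 15 became called and 7 reversed. Saa1 reversed most. Without the highest 1% of cells, wounded over normal was 0.11 in Basal (reported -1.18) and 2.80 in Rectum (reported -1.34), and under 10% mitochondrial UMIs it was 2.45 in Rectum and -0.52 in Suprabasal (reported 2.04). Ltf in normal Rectum over other cells was 0.37 without the highest cells (reported -5.90), Ltf in Hybrid over Rectum 0.59 with the mean over cells (reported -3.39), and Slpi there -1.0 under 10% mitochondrial UMIs (reported 0.24). The cause was not tested. The highest cluster of each gene was the same in all 17 gene and library pairs when the mean over cells was used or rebuilt clusters carried the names. No paired analysis was possible because each condition has 1 library. Depth limits Saa2, Saa3 and Ltf outside their high clusters, where most sums were under 12 UMIs, and the 63 normal Rectum cells limit every comparison of Rectum.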

Other observations

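Barcodes that failed the filters entered no comparison, yet they held UMIs of these genes at levels above those of the named squamous clusters of their library for Saa1 and Pigr. The 1015 failing normal barcodes (median 1089 UMIs) had Saa1 at 338 CPM (310 to 369; 527 UMIs) and Pigr at 325 CPM (297 to 354; 506 UMIs). The 11991 failing wounded barcodes (median 1937 UMIs) had Saa1 at 245 CPM (239 to 250; 8075 UMIs) and Pigr at 325 CPM (319 to 331; 10735 UMIs). The median mitochondrial share of all barcodes was 9.05% in the normal and 50.9% in the wounded library. The 10 rectum marker genes summed to 3788 CPM in the failing normal and 3501 CPM in the failing wounded barcodes, against 14624 and 11259 CPM in the Rectum clusters.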
